A study of Homo sapiens with 6 samples.

Results

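HSP90 and its cochaperones were examined as 10 genes in 22RV1 cells given bruceantin (BCT), a quassinoid natural product. The 10 genes were picked by symbol from the 26255 genes of the deposited expression tables, and they are HSP90AA1, HSP90AB1, CDC37, AHSA1, PTGES3, STIP1, STUB1, FKBP4, PPID and PPP5C. The rule names genes and uses no measured value, although it was written with earlier results of these data known. 22RV1 is an established human castration-resistant prostate cancer cell line, and all 6 samples came from this line grown in RPMI medium with fetal bovine serum. The DMSO group was treated with the vehicle alone (3 samples) and the BCT group with 10 nM BCT (3 samples), each for 24 h, before total RNA was sequenced. All values below are FPKM, a fragment number corrected for the length of the transcript and for the reads mapped in the sample, so levels of different genes can be set side by side.

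HSP90 is an ATP-driven chaperone that works as a dimer and folds or holds a defined set of client proteins, among them steroid hormone receptors and many protein kinases. Clients are brought to it by loading cochaperones, its slow ATP cycle is sped up or stalled by others, and a group of cochaperones with tetratricopeptide repeats docks at the C-terminal end of the dimer. Steroid receptors are held in a hormone-binding state by HSP90 together with p23 and an immunophilin.

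The genes of HSP90 itself are known targets of heat shock factors, which bind inverted repeats of the unit GAA, so the members' promoter windows were searched for such repeats. The windows, taken from RefSeq on GRCh38.p14, run from 250 bases before to 50 bases after an annotated start, and 7 of the 10 members matched the table, with 12 windows between them. FKBP4, PPP5C and STUB1 had no entry. The 2-unit repeats GAANNTTC and TTCNNGAA, each of which reads the same on both strands, were found in 3 of these 12 windows (25.0%), against 13.5% of all 35116 windows. Repeats of 3 alternating units, in which both 2-unit repeats overlap by their middle unit and which were searched on both strands, were found in 2 of the 12 windows, against 0.49% of all windows. The windows of HSP90AA1, HSP90AB1 and STIP1 that held a match are shown with the matched letters in capitals. The CDC37 window, which held none, is shown for contrast because CDC37 was the member that rose.
HSP90AA1, chr14:102086995-102087294, minus strand: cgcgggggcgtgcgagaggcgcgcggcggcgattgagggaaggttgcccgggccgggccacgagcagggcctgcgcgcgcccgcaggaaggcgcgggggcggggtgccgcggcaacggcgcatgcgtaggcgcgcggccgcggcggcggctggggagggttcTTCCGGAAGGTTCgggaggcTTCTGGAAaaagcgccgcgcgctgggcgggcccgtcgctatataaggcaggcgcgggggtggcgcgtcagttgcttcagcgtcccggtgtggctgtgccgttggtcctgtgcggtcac
HSP90AB1, chr6:44247693-44247992, plus strand: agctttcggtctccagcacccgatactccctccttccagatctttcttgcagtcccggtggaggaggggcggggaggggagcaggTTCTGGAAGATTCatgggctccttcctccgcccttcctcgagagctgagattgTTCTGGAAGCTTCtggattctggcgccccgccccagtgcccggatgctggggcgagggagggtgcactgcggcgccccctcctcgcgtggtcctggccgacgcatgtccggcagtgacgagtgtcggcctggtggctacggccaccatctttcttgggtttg
STIP1, chr11:64185921-64186220, plus strand: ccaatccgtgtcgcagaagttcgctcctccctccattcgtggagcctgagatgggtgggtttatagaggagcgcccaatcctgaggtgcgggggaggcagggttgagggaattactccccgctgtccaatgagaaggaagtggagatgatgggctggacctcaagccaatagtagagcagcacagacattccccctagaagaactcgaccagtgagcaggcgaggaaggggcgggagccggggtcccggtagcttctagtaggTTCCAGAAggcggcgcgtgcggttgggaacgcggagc
CDC37, chr19:10403493-10403792, minus strand: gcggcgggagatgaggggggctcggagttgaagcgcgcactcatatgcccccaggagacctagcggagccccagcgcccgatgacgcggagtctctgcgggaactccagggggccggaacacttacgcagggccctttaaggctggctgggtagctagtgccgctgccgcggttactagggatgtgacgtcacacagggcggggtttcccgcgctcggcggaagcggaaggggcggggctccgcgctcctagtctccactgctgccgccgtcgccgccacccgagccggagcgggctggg
In the HSP90AA1 window 2-unit matches began at -88, -83 and -68, counted from the start, the first 2 of which overlap to form a 3-unit match. In the HSP90AB1 window, the last of 3 windows given for that gene, matches began at -165, -160, -112 and -107 from its own start and formed a 3-unit match in each of the overlapping pairs. The earlier windows of that gene end at 44246243 and 44247150, so these matches lie downstream of the earlier annotated starts. The STIP1 window held 1 match, within the bases after the start. A match of letters is not a measurement of binding. The other windows of AHSA1, HSP90AA1, HSP90AB1, PPID, PTGES3 and STIP1 held no match in these letters.

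Across the series, 12729 genes that averaged 1 FPKM or more were compared between the groups, and a gene is said to have risen or fallen where its adjusted p from limma was below 0.05, and to be called where its log2 fold change was also beyond 0.85 in size. With BCT 17.8% of the tested genes were called lower and 13.9% called higher, and without the fold threshold 42.8% fell and 39.3% rose. Over all tested genes the median change on the log2 scale was -0.038. The sums of FPKM differed between the groups, from 1169649 to 1572321 with DMSO and from 757534 to 799838 with BCT, and 1 small RNA gene, MIR6087, took 43.5% to 55.3% of the sum with DMSO and 31.7% to 32.5% with BCT. With every sample scaled to the same sum, the counts of called genes turned from 2263 lower and 1764 higher to 668 lower and 5614 higher, and the median of all genes moved to 0.72. BCT replicate 1 stood nearer to the DMSO samples than the other BCT samples did (correlations of 0.892 to 0.896, against 0.851 to 0.857). All 6 luminal prostate markers checked were above 1 FPKM, with summed levels of 753 to 756 FPKM with DMSO and 1728 to 1911 FPKM with BCT, and 1 of 3 fibroblast markers was, with summed levels of at most 1.59 FPKM with DMSO and of 5.19 to 6.41 FPKM with BCT. Their part in the results below was not tested. The basal markers summed to at most 0.44 FPKM and the leukocyte and endothelial markers to at most 0.103 FPKM each, and the neuroendocrine markers, most of it SYP, to 46.1 to 51.8 FPKM with DMSO and 39.0 to 41.5 FPKM with BCT. In bulk RNA of this kind, fewer cells making a transcript and less transcript per cell cannot be told apart.

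Of the 10 members, 6 fell with BCT, CDC37 rose, and STIP1, STUB1 and PPID did not pass the test. FKBP4 alone was called beyond the fold threshold. The members' median log2 fold change was -0.42 and their range was -0.99 to 0.33. The 6 that fell, of 10, stand against 42.8% of all tested genes, the 1 that rose against 39.3%, and the 1 called lower against 17.8%, and nothing in these counts sets the members apart from the tested genes as a whole. All 10 members were measured well above the filter, from 31.0 FPKM for PPID to 707 FPKM for HSP90AB1. By the plain reading of the 6 values, the groups did not overlap for 8 members, lower with BCT in 6 and higher in 2, beside 44.3% of all tested genes lower without overlap and 41.0% higher. 

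**Figure D1:**
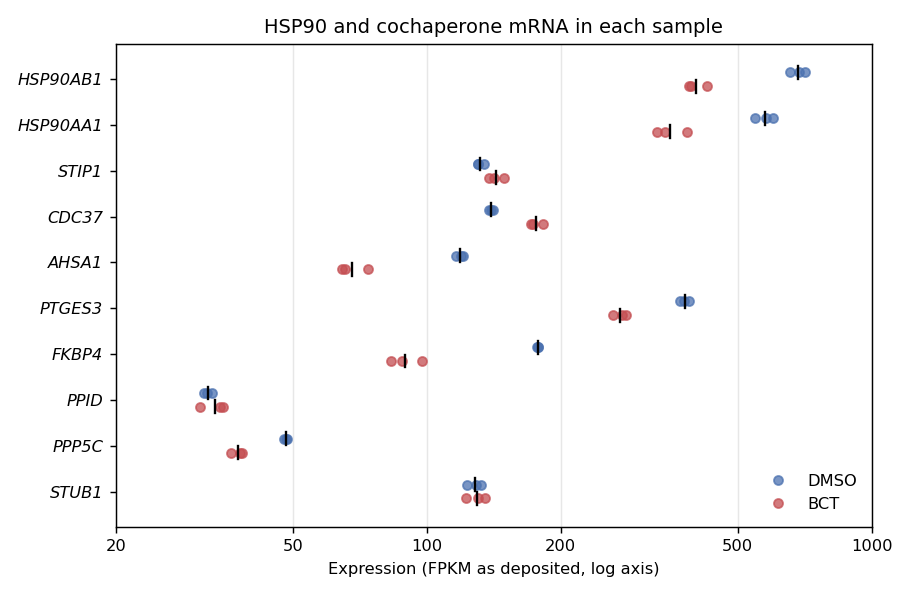
FPKM of the 10 members in each of the 3 DMSO and 3 BCT samples, points for samples and lines for group means. HSP90AB1 and HSP90AA1 head the members in both groups, and the 3 BCT points lie below the 3 DMSO points for HSP90AA1, HSP90AB1, AHSA1, PTGES3, FKBP4 and PPP5C and above them for CDC37 and STIP1.

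Both cytosolic chaperone genes fell. HSP90AB1, which encodes the constitutive beta form and lies at 44213903 to 44221625 on the plus strand of chromosome 6 (hg19, the build of the deposited tables, used for all gene positions below), measured 686, 707 and 654 FPKM with DMSO and 427, 393 and 389 FPKM with BCT. The highest BCT sample was far below the lowest DMSO sample. The means (± SD, n = 3 in each group, as in all such values here) of 683 ± 26.7 and 403 ± 20.9 FPKM gave a change of -0.76 on the log2 scale (SE 0.057, adjusted p = 4.95e-06 by limma). HSP90AA1, which encodes the stress-inducible alpha form and lies at 102547075 to 102606086 on the minus strand of chromosome 14, measured 599, 579 and 546 FPKM with DMSO and 384, 344 and 330 FPKM with BCT. Again no BCT sample reached a DMSO sample, and the change was -0.71 (SE 0.068, adjusted p = 1.99e-05 by limma). As deposited, both genes summed to 1257 ± 49.4 FPKM with DMSO and 755 ± 48.9 FPKM with BCT. The BCT sum was 60.1% of the DMSO sum. With quantile normalization the changes were smaller, at -0.29 for HSP90AA1 and -0.25 for HSP90AB1. With equal FPKM sums neither gene passed the test.

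The balance between the alpha and beta genes did not differ beyond the spread between samples. Per 100 FPKM of HSP90AB1 there were 87.4, 81.8 and 83.4 FPKM of HSP90AA1 with DMSO and 89.9, 87.6 and 84.7 FPKM with BCT. The groups overlapped, with a log2 difference of 0.05 and an exact two-sided permutation p of 0.2, where 3 samples against 3 cannot give a p under 0.1. The 2 genes are close relatives, but the longest stretch of identical bases in their transcripts was 23, shorter than a read of 100 bases. Stretches of at least 100 bases that also occur elsewhere in GRCh37 made up 15.2% of the HSP90AA1 transcript and 9.4% of the HSP90AB1 transcript, and how the deposited values assigned such fragments is not given in the sources used here. The 1 copy listed by symbol, HSP90AB4P, stayed at or below 0.022 FPKM.

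The cochaperones that load clients did not follow the chaperone genes. CDC37, the cochaperone that brings protein kinases to HSP90, lies at 10501809 to 10514271 on the minus strand of chromosome 19 and measured 139, 138 and 141 FPKM with DMSO and 171, 182 and 173 FPKM with BCT. Every BCT sample was above every DMSO sample, and the means of 140 ± 1.43 and 176 ± 5.75 FPKM gave a log2 fold change of 0.33 (SE 0.046, adjusted p = 0.000178 by limma). The increase was inside the fold threshold of 0.85. STIP1, also called HOP, bridges HSP70 and HSP90 and passes steroid receptors from the first to the second. At 63952744 to 63972020 on the plus strand of chromosome 11, it measured 131, 135 and 131 FPKM with DMSO and 138, 149 and 142 FPKM with BCT. The groups did not overlap, but the log2 fold change of 0.12 (SE 0.048) narrowly missed the threshold, with an adjusted p of 0.0511 by limma. It passed in the same direction under 8 of the alternative settings, among them without BCT replicate 1 (adjusted p = 0.0167 by limma). Under the remaining settings it did not pass, among them the replicate block, median centring and without DMSO replicate 1 (adjusted p = 0.0772, 0.0854 and 0.116 by limma).

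AHSA1 and PTGES3, which encode an activator and a late-stage stabilizer of the ATP cycle, both fell. AHSA1, the activator of the HSP90 ATPase, lies at 77924373 to 77935815 on the plus strand of chromosome 14 and measured 119, 116 and 120 FPKM with DMSO and 73.8, 64.6 and 65.3 FPKM with BCT. The samples of the groups lay well apart. Its log2 fold change of -0.81 (SE 0.061, adjusted p = 5.09e-06 by limma) was inside the fold threshold and passed it without BCT replicate 1, at -0.87. PTGES3, which encodes p23, binds the closed ATP-bound dimer and steadies receptor complexes. It lies at 57057125 to 57082192 on the minus strand of chromosome 12 and measured 389, 371 and 378 FPKM with DMSO and 281, 262 and 274 FPKM with BCT. No sample overlapped, and the change was -0.48 (SE 0.049, adjusted p = 2.78e-05 by limma). The fall did not pass the test under 3 of the 6 scalings, at 0.29 with equal FPKM sums (adjusted p = 0.0587 by limma), -0.093 with such sums without MIR6087 (adjusted p = 0.0769 by limma) and -0.077 with quantile normalization (adjusted p = 0.184 by limma). Stretches found elsewhere in GRCh37 covered 19.2% of the PTGES3 transcript, the largest share among the members, and PTGES3L, a relative listed by symbol, was at 0.741 to 1.26 FPKM.

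The cochaperones that dock through tetratricopeptide repeats went apart. FKBP4, the immunophilin FKBP52 of mature steroid receptor complexes, had the largest change of the 10 members. It lies at 2904108 to 2914587 on the plus strand of chromosome 12 and measured 177, 178 and 178 FPKM with DMSO and 97.4, 87.9 and 83.0 FPKM with BCT. The DMSO samples were nearly identical, the BCT samples all lay near 50.3% of their mean, and the log2 fold change was -0.99 (SE 0.063, adjusted p = 2.26e-06 by limma). The call was lost with equal FPKM sums, with such sums without MIR6087, with quantile normalization and when the threshold of 0.85 was itself tested (adjusted p = 0.121 by limma). PPP5C, a phosphatase bound to HSP90, lies at 46850251 to 46894232 on the plus strand of chromosome 19 and measured 48.5, 48.3 and 47.8 FPKM with DMSO and 38.4, 38.1 and 36.4 FPKM with BCT. It fell by 0.36 on the log2 scale (SE 0.046, adjusted p = 0.000112 by limma), with no overlap.

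PPID, the cyclophilin CYP40 of the same docking class, and STUB1, the ubiquitin ligase CHIP that marks clients for degradation, did not pass the test in the values as deposited. PPID, at 159630279 to 159644552 on the minus strand of chromosome 4, measured 31.6, 33.0 and 32.0 FPKM with DMSO and 31.0, 34.8 and 34.3 FPKM with BCT. The groups overlapped, and the log2 fold change was 0.049 (95% interval -0.086 to 0.18, adjusted p = 0.453 by limma). STUB1, at 730111 to 734439 on the plus strand of chromosome 16, measured 129, 123 and 132 FPKM with DMSO and 135, 131 and 122 FPKM with BCT. Its samples overlapped too, with a log2 fold change of 0.014 (95% interval -0.11 to 0.14, adjusted p = 0.82 by limma). JMJD8, at 54.6 FPKM with DMSO and 41.8 FPKM with BCT, is deposited over the same interval on the other strand. The interval is given for both genes, so it need not be the extent of either. The library kit does not mark strand, so fragments from any bases that both transcripts share cannot be told apart. PPID and STUB1 passed the test as higher under other scalings. PPID was at 0.82 with equal FPKM sums and 0.43 with such sums without MIR6087 (adjusted p = 1.35e-06 and 0.000555 by limma). STUB1 was at 0.78 and 0.40 (adjusted p = 1.23e-06 and 2.90e-05 by limma) and at 0.27 with quantile normalization (adjusted p = 0.000494 by limma). Under these scalings the median of all tested genes was itself 0.72, 0.34 and 0.029, in the same order.

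**Figure D2:**
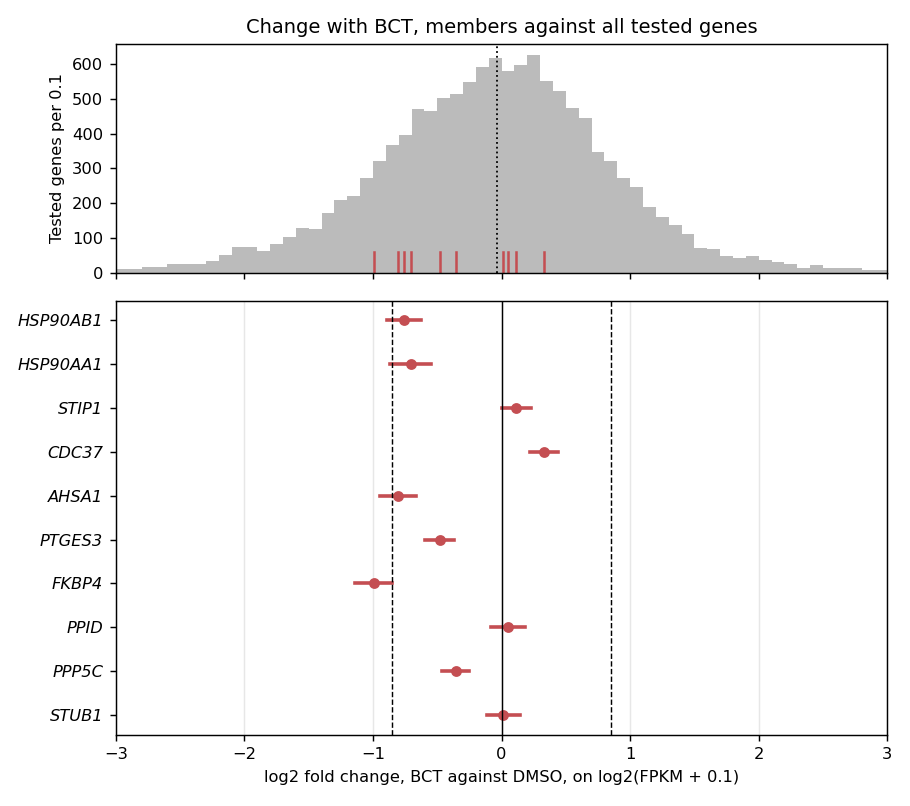
Log2 fold change, BCT minus DMSO, of all 12729 tested genes as a histogram and of the 10 members with 95% intervals. Dashed lines stand at 0.85 in either direction and a dotted line at the median of all genes. FKBP4 lies past the lower dashed line, CDC37 is the 1 member whose interval lies above 0 with an adjusted p under 0.05, and the intervals of STUB1 and PPID span 0.

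Because a scaling factor for a sample cancels in a ratio taken inside that sample, each cochaperone was also expressed per 100 FPKM of HSP90AA1 and HSP90AB1 together. CDC37 had 10.8, 10.8 and 11.8 FPKM per 100 with DMSO and 21.2, 24.7 and 24.1 per 100 with BCT. This was the largest shift of the 8 cochaperones, 1.07 on the log2 scale. STIP1 stood at 10.5 ± 0.364 per 100 with DMSO and 19.0 ± 1.71 with BCT, a log2 difference of 0.85. PPID stood at 2.56 ± 0.106 and 4.44 ± 0.537 per 100, a log2 difference of 0.79, and STUB1 at 10.2 ± 0.747 and 17.1 ± 0.546 per 100, a log2 difference of 0.75. For these 4 every BCT sample was above every DMSO sample.

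The ratios of PPP5C and PTGES3 were also higher without overlap, by 0.38 and 0.26 on the log2 scale. The FKBP4 ratio was lower in every BCT sample, at 14.2 ± 0.590 per 100 with DMSO and 11.8 ± 0.251 per 100 with BCT, a log2 difference of -0.26. The AHSA1 ratio, 9.29, 9.05 and 10.0 per 100 with DMSO and 9.10, 8.77 and 9.09 with BCT, overlapped (log2 difference of -0.071, exact two-sided permutation p = 0.3). For the 7 ratios without overlap the exact two-sided permutation p was 0.1, the smallest that 3 samples against 3 allow, and 0.129 after adjustment over the 9 ratios computed, so none passed a threshold of 0.05. Only 22.4% and 20.7% of tested genes had a lower log2 fold change than HSP90AA1 and HSP90AB1, so most tested genes would also stand higher against them. The share of all genes without overlap in such a ratio was not computed. The log2 fold changes of STIP1, PPID and STUB1 themselves were 0.12, 0.049 and 0.014. As sums of the deposited values, the 8 cochaperones measured 1156 ± 11.8 FPKM with DMSO and 949 ± 18.0 FPKM with BCT. That is 82.1% of the DMSO level, beside 60.1% for the chaperone genes.

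**Figure D3:**
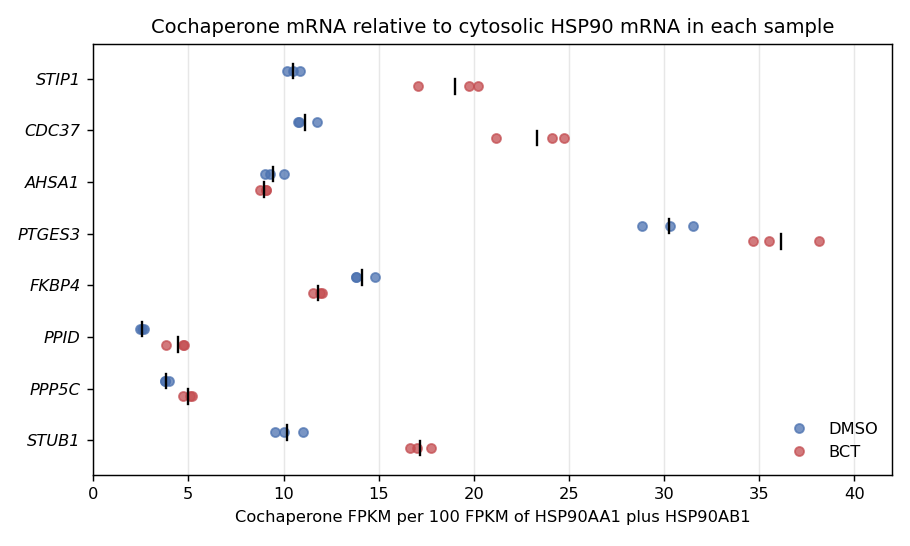
FPKM of each of the 8 cochaperones per 100 FPKM of HSP90AA1 plus HSP90AB1, by sample. The DMSO points of CDC37 lie at 10.8 to 11.8 and its BCT points at 21.2 to 24.7, the BCT points of FKBP4 lie below its DMSO points, and those of AHSA1 overlap.

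Ranks inside each sample do not depend on its scaling, and HSP90AB1 ranked above HSP90AA1 in all 6 samples. HSP90AB1 ranked 148, 136 and 153 among the tested genes with DMSO and 164, 172 and 167 with BCT, and HSP90AA1 ranked 163, 155 and 167 with DMSO and 188, 193 and 197 with BCT. CDC37 moved up from 686, 670 and 672 to 441, 396 and 406. FKBP4 moved down from 529, 503 and 526 to 863, 976 and 1022, and AHSA1 from 799, 789 and 787 to 1195, 1414 and 1355. PTGES3 ranks overlapped between the groups, at 236, 234 and 240 with DMSO and 254, 267 and 233 with BCT.

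The sign of the change in several members depends on how samples are scaled to each other. With equal sums of FPKM the median of all genes moved to 0.72, and against that the log2 fold changes were 0.062 for HSP90AA1, 0.0075 for HSP90AB1, 0.29 for PTGES3, 0.41 for PPP5C, -0.040 for AHSA1 and -0.22 for FKBP4. Of these 6, PPP5C alone then passed the test, as higher (adjusted p = 0.017 by limma). Leaving MIR6087 out of those sums gave -0.32 for HSP90AA1, -0.37 for HSP90AB1 and -0.61 for FKBP4, with a median of all genes of 0.34 and PPP5C at 0.028. CDC37 was higher under each of the 6 scalings, between 0.32 and 1.10, and the values of FKBP4 and AHSA1 were below 0 under each. Taken relative to the median of all genes, HSP90AA1 changed by -0.67 and HSP90AB1 by -0.72.

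**Figure D4:**
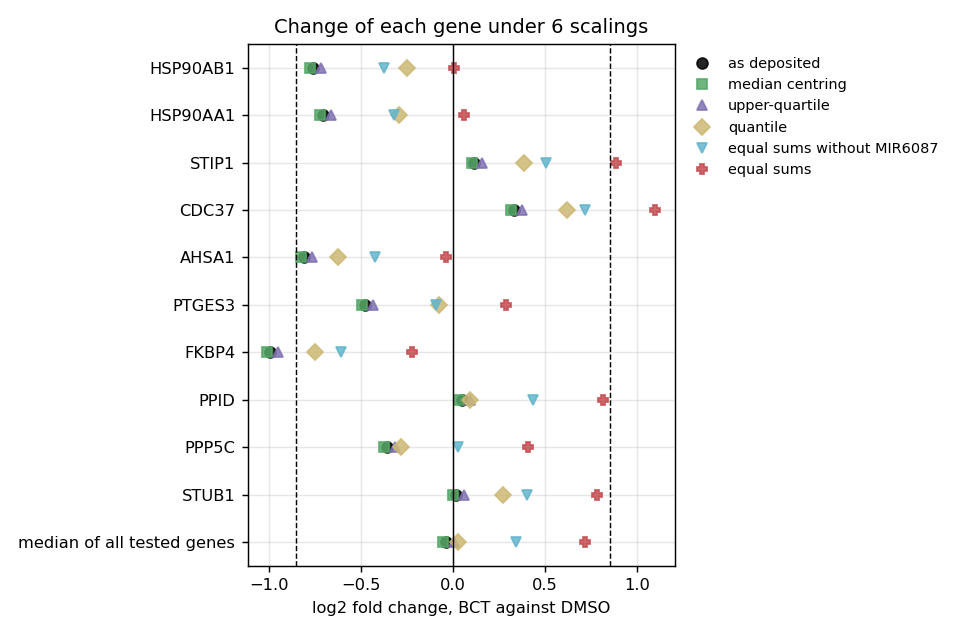
Log2 fold change of each member under 6 scalings of the samples, with dashed lines at 0.85 in either direction. With equal FPKM sums HSP90AA1 and HSP90AB1 sit at 0.062 and 0.0075, FKBP4 and AHSA1 stay below 0 under all 6 scalings, and CDC37 stays above 0.

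The other genes of the HSP90 machinery, a list of 41 with 39 tested, moved in both directions. Of these 39, 16 fell, 16 rose and 7 did not pass the test, and their median log2 fold change was 0.022, beside 42.8% falling and 39.3% rising among all tested genes. ITGB1BP2 and DNAAF1 were below the filter. Beyond the fold threshold 7 were called lower and 3 higher, beside 17.8% and 13.9% of all tested genes.

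The organelle paralogs of HSP90 were both called lower. HSP90B1, the endoplasmic reticulum form GRP94, measured 1007, 991 and 1025 FPKM with DMSO and 268, 252 and 244 FPKM with BCT. All 3 BCT samples lay near 25.3% of the DMSO mean, a log2 fold change of -1.98 (SE 0.051, adjusted p = 1.59e-07 by limma), larger in size than that of any of the 10 members. TRAP1, the mitochondrial form, measured 163, 158 and 158 FPKM with DMSO and 80.1, 75.3 and 66.6 FPKM with BCT, with no overlap and a log2 fold change of -1.11 (adjusted p = 2.10e-06 by limma). The TRAP1 call was lost with equal FPKM sums (-0.35) and with such sums without MIR6087 (-0.73), where it still fell.

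Among the other cochaperones, FKBP5, the immunophilin FKBP51 that competes with FKBP4 in receptor complexes and is an androgen-induced gene, was called lower as FKBP4 was. It measured 164, 160 and 162 FPKM with DMSO and 68.5, 61.9 and 60.3 FPKM with BCT, a log2 fold change of -1.35 (adjusted p = 6.27e-07 by limma). TELO2, which serves the assembly of kinases of the PI3K-related family, changed by -1.30, NASP, a histone chaperone, by -1.24, CACYBP, a partner of a ubiquitin ligase complex, by -0.91 and HSPBP1, an HSP70 exchange factor, by -0.89.
Called higher were SPAG1, which serves the assembly of dynein arms, at 1.44, CDC37L1, a relative of CDC37, at 1.06, and CHORDC1, a zinc-binding cochaperone, at 0.88. CDC37L1 measured 7.25, 7.42 and 7.11 FPKM with DMSO and 13.0, 16.1 and 17.1 FPKM with BCT, so it rose together with CDC37 from a far lower level. Several of these calls depend on the setting. With equal FPKM sums FKBP5, TELO2 and NASP were inside the fold threshold at -0.58, -0.54 and -0.47, and CACYBP and HSPBP1 did not pass the test at -0.15 and -0.12. CACYBP also lost its call with such sums without MIR6087 (-0.53) and with quantile normalization (-0.79), and HSPBP1 with such sums without MIR6087 (-0.51) and with upper-quartile scaling (-0.85, just inside). When the threshold of 0.85 was itself tested, CDC37L1, CACYBP, HSPBP1 and CHORDC1 did not pass (adjusted p = 0.137, 0.581, 0.98 and 1 by limma). CHORDC1 was inside the threshold with a pseudocount of 1 (0.83), without DMSO replicate 1 (0.85) and without BCT replicate 3 (0.80), and HSPBP1 without BCT replicate 3 (-0.85).

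**Figure D5:**
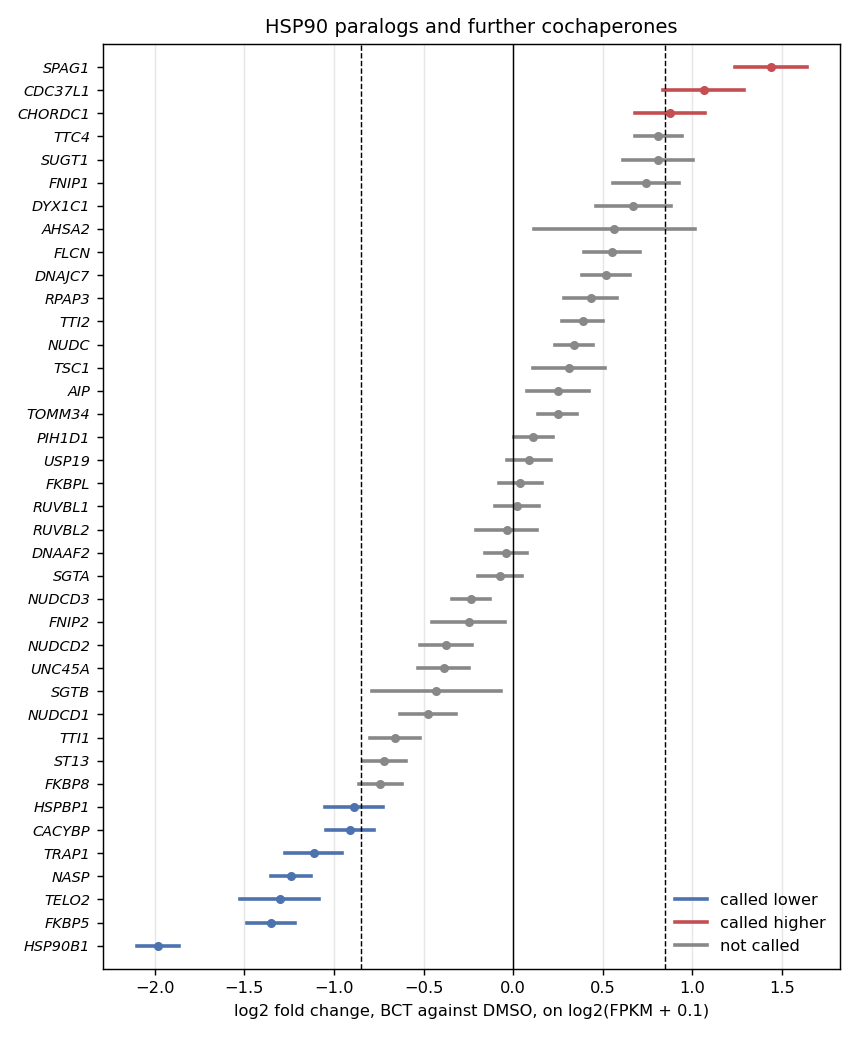
Log2 fold change, BCT minus DMSO, with 95% intervals for the 39 tested genes of the HSP90 machinery outside the 10 members. Blue marks the 7 called lower, red the 3 called higher and gray those not called, and HSP90B1 at -1.98 and SPAG1 at 1.44 stand at the ends.

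The tested genes whose values most resembled those of HSP90AA1 over the 6 samples on the log2 scale were PRUNE, WDR41 and NXPE3, with Pearson correlations of 0.9996, 0.9992 and 0.9992. For HSP90AB1 they were SMC2, HSPA9 and AIM1, at 0.9999, 0.9999 and 0.9994. These correlations describe 6 samples in 2 groups that share their library scaling, and the genes were picked from all tested genes for the highest values.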

How the data were processed

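RNA from 3 DMSO and 3 BCT samples of 22RV1 cells was sequenced as paired reads of 100 bases. Reads were trimmed by the authors (Trimmomatic 0.38) and aligned with HISAT2 to hg19, and the authors deposited FPKM values per gene, made with StringTie per the study's methods. HTSeq and CASAVA are also named in the submitters' processing notes. Groups and replicate numbers came from the labels, which do not say whether samples were separate cultures, so p-values measure the spread between these samples, which may be technical.

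The deposited FPKM values were tested as log2(FPKM + 0.1) with limma 3.58.1 (R 4.3.3, eBayes with a trend) and Benjamini-Hochberg adjustment over the 12729 genes averaging 1 FPKM or more. Fold changes are on that scale. Intervals are 95% intervals from limma. On simulated data the fit recovered 194 of 200 genes given a log2 change of 1.5, with 1 false call among 12529. The simulated samples had independent noise and no scaling difference between them, and the change was larger than that of any member. These figures therefore do not measure how reliable the results for the members are. FPKM holds no counts. Relative depth, read from the steps of low values, was 0.877 to 1 with DMSO and 1.05 to 1.13 with BCT, and a count test was not run. Ratios were tested with the exact permutation test. Shared stretches of transcripts were found with blastn 2.17.0 in GRCh37, and gene positions are the deposited ones, counted from 1.

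The members and lists were chosen with earlier results of these data known. Named were the members, the organelle paralogs and the called genes among the other cochaperones, 4 heat shock genes with the largest change, 3 clients and the 3 genes most alike each HSP90 gene. JMJD8 and the relatives found by symbol are named as possible sources of shared fragments, and MIR6087 for its share of the FPKM sum. AKT2 and HSPA1A and HSPA1B were named after their values were seen. Some genes of the lists are not reported here. Protein sequences were not analysed here.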

Additional observations from a re-analysis of the deposited data

How the results depend on the processing

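The scaling of FPKM between samples moved the members, and library depth is known only as a ratio. With equal FPKM sums, no member was called lower (0) and 2 were called higher, 0 fell and 5 rose, and the medians were 0.35 for the members, 0.79 for the other cochaperones and 0.72 for all genes. Of the other cochaperones 1 was then called lower and 18 higher, 5 fell and 27 rose, and of all genes 668 were called lower and 5614 higher. HSP90AA1 turned to 0.062, HSP90AB1 to 0.0075, PTGES3 to 0.29 and PPP5C to 0.41. With MIR6087 left out of the sums, 0 members were called lower and 4 rose, 4 other cochaperones were called lower and 10 higher with 10 falling, 1208 genes were called lower and 3370 higher, the medians were -0.032, 0.41 and 0.34, and PPP5C turned to 0.028. Upper-quartile scaling gave 2 members that rose, 5 other cochaperones called higher and medians of -0.37, 0.065 and 0.0053. Quantile normalization gave 0 members called lower, 3 that rose and medians of -0.16, 0.098 and 0.029. Median centring gave a median of all genes of -0.052 and STUB1 at -0.00058.

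Testing against the fold threshold itself left 0 members called lower, 0 that fell and 0 that rose, and among the other cochaperones 5 lower and 1 higher, with 1392 genes called lower and 1033 higher. A pseudocount of 1, no filter and robust eBayes each gave 2 members that rose. Without the filter 2657 genes were called higher and the median of all genes was 0.046, and with a mean of at least 5 FPKM 1150 were called higher and the median of the other cochaperones was -0.0071. Leaving out each sample in turn, 1 to 2 members were called lower (AHSA1 joined at -0.87 without BCT replicate 1), 1 to 2 rose, the median of the other cochaperones ran from -0.018 to 0.047, and STUB1 from -0.018 to 0.054. The cause of these shifts was not tested.

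The 9 within-sample ratios kept their direction and moved by less than the spread between samples under all 78 alternatives computed for them. For most of these the size of the shift was bounded in advance and tests nothing. Leaving out a sample cannot move the mean of so small a group by as much as that spread. Nor can it reverse a ratio without overlap. The replicate block returns the same difference by arithmetic. Only a pseudocount of 1 in both terms and HSP90AB1 alone as the denominator could have given a larger shift. These were run for the cochaperone ratios. Same-numbered DMSO and BCT samples deviated together only weakly (correlations of 0.033 to 0.116), so they were taken to share only a number. With the replicate number as a block, 1 member was called lower, 6 fell and 1 rose, and 15 other cochaperones fell. A count test was not run, since whole reads could not be recovered from the FPKM.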

Other observations

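Genes of the cytosolic and mitochondrial heat shock response were listed as 15, of which 14 were tested, since CRYAB was below the filter. With BCT 8 fell, 2 rose and 4 did not pass the test, beside 42.8% falling and 39.3% rising among all tested genes. Their median log2 fold change was -0.39. Beyond the fold threshold 5 were called lower and 1 higher, beside 17.8% and 13.9% of all tested genes. HSPA8, the constitutive cytosolic HSP70 that hands clients to HSP90 through STIP1, measured 1052, 1043 and 971 FPKM with DMSO and 500, 272 and 266 FPKM with BCT. No sample overlapped, and BCT replicate 1 was the highest of its group. The log2 fold change was -1.63 (adjusted p = 0.000135 by limma). The mitochondrial chaperonin genes HSPD1 and HSPE1 changed by -1.30 and -1.38 (adjusted p = 2.60e-06 and 1.25e-06 by limma). With equal FPKM sums both were inside the fold threshold, at -0.53 and -0.62, and HSPD1 was also inside it with quantile normalization, at -0.77. HSPA1A and HSPA1B, inducible HSP70 genes that are near-identical copies and whose values are therefore uncertain, changed by -0.95 and -0.96. The alternative settings were not read for these genes either. HSF1, the main heat shock transcription factor, was called higher at 1.17 (adjusted p = 6.32e-07 by limma), from 27.1, 27.3 and 28.9 FPKM with DMSO to 64.2, 63.2 and 60.7 FPKM with BCT.

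Transcripts of HSP90 clients moved in both directions. NR3C1, the glucocorticoid receptor, was higher in every BCT sample, from 4.37, 3.94 and 4.11 FPKM with DMSO to 17.6, 19.9 and 21.6 FPKM with BCT, a log2 fold change of 2.22 (adjusted p = 3.93e-07 by limma). MYC changed by -2.18, AKT1 by -1.01 and AKT2 by -1.26. The alternative settings were not read for AKT2. With equal FPKM sums AKT1 did not pass the test, at -0.24 (adjusted p = 0.164 by limma), and it was inside the fold threshold with such sums without MIR6087 (-0.62) and with quantile normalization (-0.85), and did not pass when the threshold itself was tested (adjusted p = 0.379 by limma). RNA levels do not measure the client proteins.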
